A study of Mus musculus with 6 samples.

Results

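Genes of the interleukin-22 (IL-22) and STAT3 response are described here in sorted small-intestinal epithelial cells with and without the transcription factor c-Maf. They were chosen by name: Saa1, Saa2, Saa3, Lcn2, Pigr, Il22ra1, Il10rb, Stat3, Socs3 and Bcl3, which are 10 of the 23390 genes counted. RNA was sequenced from 3 libraries of Vil.Cre Maf.flox mice and 3 libraries of Maf.flox mice. Both carry floxed Maf; the first also carry Cre under the promoter of villin, a gene of the intestinal epithelium. All mice were on the C57BL/6 background and received no labelled treatment, and age is not given in the sources used here. Cells were sorted as viable, negative for the leukocyte marker CD45 and positive for the epithelial marker EpCAM, so epithelial types were not separated. A group with Cre and unfloxed Maf was not analysed here, and what Cre does by itself and what the loss of Maf does cannot be told apart. Libraries of both sexes were found in each group, so each group held more than 1 mouse. The labels do not state whether each library came from a separate mouse, so the spread that p-values measure may be technical in part.

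IL-22 is made by lymphocytes of the gut wall and acts on the epithelium through a receptor of the chains IL-22RA1 and IL-10RB. The receptor's kinases phosphorylate STAT3, which enters the nucleus and induces defence genes together with its own inhibitor SOCS3. In the small intestine, bacteria that adhere to the epithelium are known inducers of this circuit, with serum amyloid A among its best known outputs. The receptor pIgR, which carries IgA across the epithelium, and the nuclear NF-kB cofactor BCL3 respond to neighbouring cytokine signals.

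Libraries held 17464355 to 24802525 counts, so that 1 CPM (a read count scaled to library size by the TMM method) stood for 17.0 to 23.8 counts. Maf itself had 16, 1 and 1 counts in the Vil.Cre Maf.flox libraries, against 9398, 5615 and 3893 in the Maf.flox libraries. Summed epithelial markers (Epcam, Cdh1, Vil1, Krt8, Krt18, Krt20) lay between 12357 and 16302 CPM in Vil.Cre Maf.flox and between 12939 and 15821 CPM in Maf.flox. For 14 leukocyte markers with a value of the 16 listed, the sum lay between 32.6 and 42.4 CPM in Vil.Cre Maf.flox and between 24.6 and 35.0 CPM in Maf.flox. Within that list, Ptprc, which encodes CD45, had 2, 10 and 6 counts in Vil.Cre Maf.flox and 20, 44 and 6 in Maf.flox. The T cell gene Cd3e and the plasma cell gene Mzb1 had at most 2 counts in any library. Other plasma cell genes of the list had more: Igha 70, 196 and 45 counts in Vil.Cre Maf.flox and 72, 42 and 61 in Maf.flox. Jchain had 12, 67 and 11 counts in Vil.Cre Maf.flox and 28, 5 and 8 in Maf.flox. Lcp1, an actin-bundling protein of leukocytes, was the highest of the list at 16.0 CPM in Vil.Cre Maf.flox and 17.4 CPM in Maf.flox. The B cell gene Ms4a1 had 13, 9 and 11 counts in Vil.Cre Maf.flox and 3, 1 and 2 in Maf.flox. Ms4a1 passed the filter on low counts only through the Vil.Cre Maf.flox libraries, where it is high, so nothing is read from its fold change. The log2 fold changes of Ms4a1 and of the integrin gene Itgam were 2.49 and 0.89, and neither gene was called. Summed stromal and endothelial markers were at most 0.940 CPM in Vil.Cre Maf.flox and at most 0.885 CPM in Maf.flox, with Pecam1 the highest of them. Of the genes of IL-22 producing lymphocytes, Il7r had 0, 0 and 0 counts in Vil.Cre Maf.flox and 0, 1 and 1 in Maf.flox. Paneth cell markers summed to 6210 to 8652 CPM in Vil.Cre Maf.flox and to 4402 to 26758 CPM in Maf.flox, where replicate 3 was the highest. Of these 6 markers 0 were called; the log2 fold change was below 0 for 5 (Defa17 -3.14, Ang4 -1.32, Defa24 -1.13, Lyz1 -1.12 and Itln1 -0.89) and above 0 for 1 (Mmp7, 0.43). The part of other cells and of Paneth cell content in the results that follow was not tested. Since these are bulk samples, fewer cells of a type and less RNA per cell cannot be told apart.

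Called were 0 of the 10 genes at an adjusted p of 0.05 (edgeR's quasi-likelihood test, adjusted by Benjamini-Hochberg over 13740 genes). Over all genes 75 were called, or 0.546%. DESeq2 called 1 of the 10 and limma-voom 0. Saa1 and Saa3 had an unadjusted p under 0.05, both higher in Vil.Cre Maf.flox, where 7.11% of all genes were higher at such a p and 16.4% had one in either direction. Saa1 averaged 54.1 ± 39.1 CPM in Vil.Cre Maf.flox and 6.57 ± 6.98 CPM in Maf.flox, and Pigr averaged 6872 ± 871 CPM in Vil.Cre Maf.flox and 5373 ± 403 CPM in Maf.flox (SD, n = 3 each). For Stat3 and Bcl3 the groups overlapped, and the 95% intervals of their fold changes took in 0. Saa2 and Lcn2 had too few counts to be tested, so 8 of the 10 genes entered the test.

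**Figure D1:**
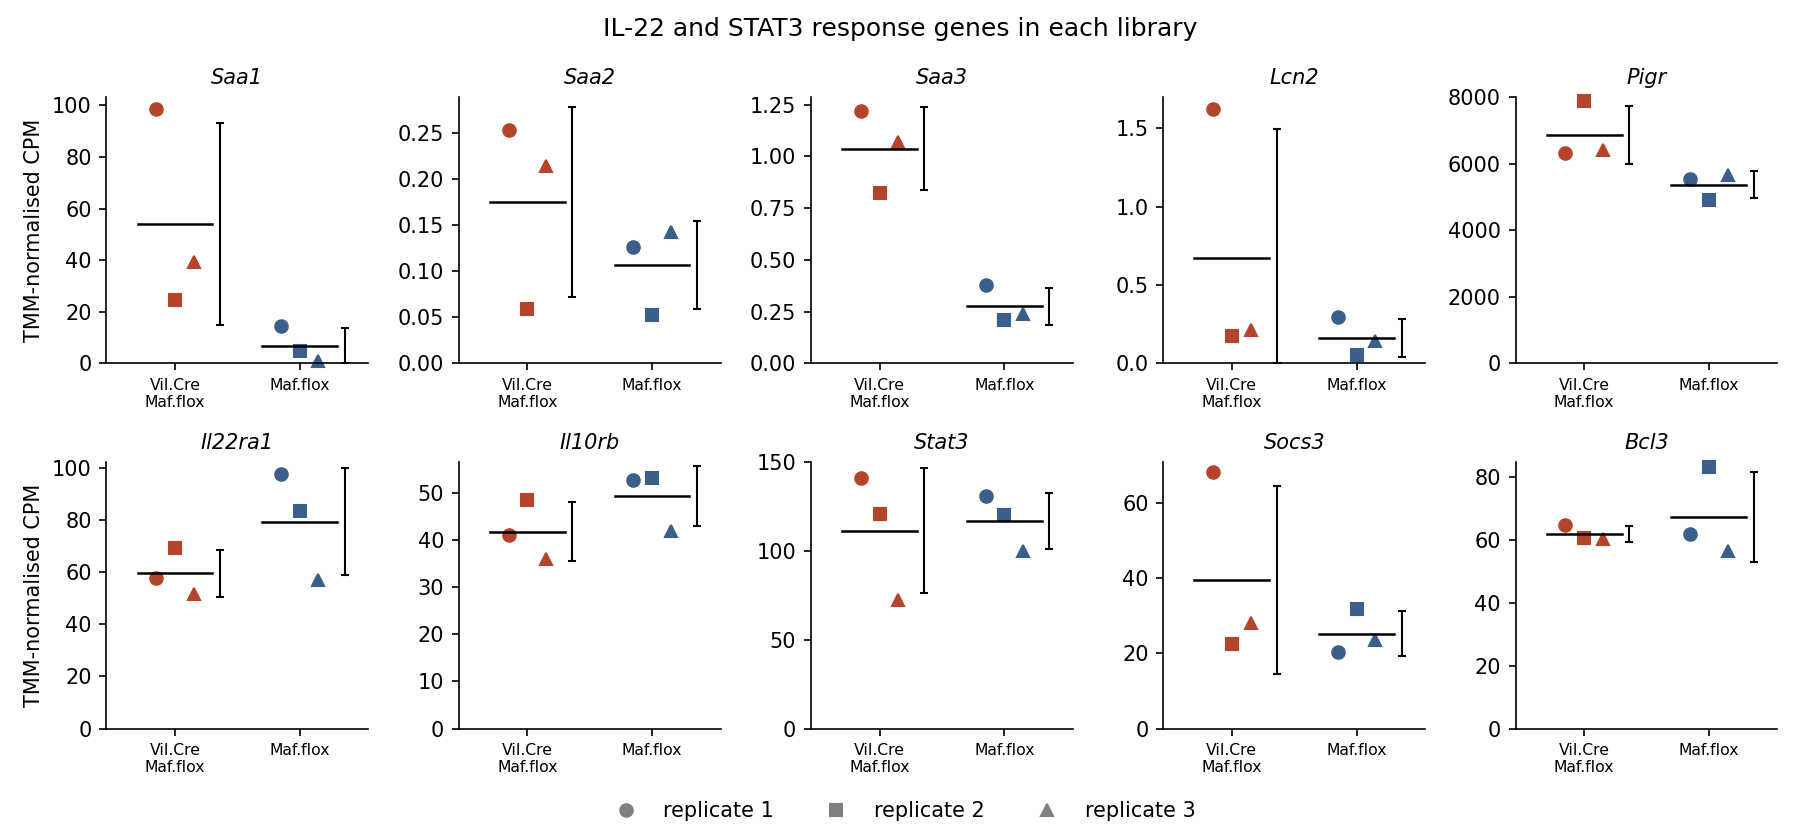
TMM-normalised CPM (vertical axes, each from 0) of the 10 genes in the 3 Vil.Cre Maf.flox and 3 Maf.flox libraries; points are libraries, horizontal lines are means and bars beside them are SDs, cut at 0. Vil.Cre Maf.flox replicate 1 is the highest library for Saa1, Saa2, Saa3, Lcn2, Stat3 and Socs3, and the groups do not overlap for Saa1, Saa3 and Pigr.

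Serum amyloid A proteins are small lipid and retinol carriers that the epithelium secretes. The genes lie together on chromosome 7 (GRCm38): Saa3 at 46711998 to 46715700 and Saa1 at 46740497 to 46742980, both on the minus strand, and Saa2 at 46751790 to 46754313 on the plus strand. Saa1 and Saa2 are near copies, which bears on how their reads are counted. Of 366 coding bases 18 differ, an identity of 95.1%, while Saa1 and Saa3 are 75.9% identical over their aligned coding bases. The coding stretch in which Saa1 and Saa2 differ most, bases 90 to 149 counted from the start codon, holds 7 of these differences, shown in capitals (GENCODE M21 transcripts, GRCm38).
Saa1: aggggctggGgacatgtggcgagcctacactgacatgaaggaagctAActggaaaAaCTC
Saa2: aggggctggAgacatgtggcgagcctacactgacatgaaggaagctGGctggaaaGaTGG
Of 560 windows of 50 bases in the Saa1 mRNA, 13.2% also occur in a Saa2 transcript and 1.61% in a Saa3 transcript, and no window of 100 bases does in either. Read length and the handling of reads with several matches are not given in the sources used here, so some reads of one gene may have been left out or given to the other.

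Saa1 had 1942, 420 and 917 counts in Vil.Cre Maf.flox libraries, against 341, 88 and 17 in Maf.flox libraries. Scaled for depth these were 98.5, 24.7 and 39.2 CPM in Vil.Cre Maf.flox, against 14.3, 4.58 and 0.806 CPM in Maf.flox. Every Vil.Cre Maf.flox library was above every Maf.flox library, but libraries of the same genotype also lay far apart: Vil.Cre Maf.flox replicate 1 was well above the other two, and Maf.flox replicate 3 was well below the rest of its group. The log2 fold change was 3.02 (SE 1.08, 95% interval 0.20 to 5.85, adjusted p = 0.278, edgeR's quasi-likelihood test). Leaving out Vil.Cre Maf.flox replicate 1 brought it to 2.28, and leaving out Maf.flox replicate 1 to 4.36. With no filter on low counts the estimate was 3.04, with a 95% interval from -0.13 to 6.22, which takes in 0.

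Saa3, which is made by macrophages and fat cells as well as by epithelium, was far below Saa1: the ratio of Saa1 to Saa3 per gene length was 85.1, 31.5 and 38.6 in Vil.Cre Maf.flox and 39.8, 23.1 and 3.58 in Maf.flox. Saa3 had 24, 14 and 25 counts in Vil.Cre Maf.flox, against 9, 4 and 5 in Maf.flox, or 1.22, 0.822 and 1.07 CPM in Vil.Cre Maf.flox and 0.378, 0.208 and 0.237 CPM in Maf.flox. The groups did not overlap, and the values within each were closer together than those of Saa1. Its log2 fold change was 1.88 (SE 0.397, 95% interval 0.98 to 2.78, adjusted p = 0.0762, edgeR's quasi-likelihood test). Saa3 passed the filter on low counts only through the Vil.Cre Maf.flox libraries, where it is high. It was called with no filter (adjusted p = 0.0478, edgeR's quasi-likelihood test) and by DESeq2 (adjusted p = 0.0386), and its log2 fold change lay between 1.74 and 2.20 with 1 library left out.

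Saa2 had 5, 1 and 5 counts in Vil.Cre Maf.flox and 3, 1 and 3 in Maf.flox, so that no difference was detectable at this depth. The serum amyloid A reads were thus nearly all those of Saa1, which made up 98.5, 96.6 and 96.8% of the counts of Saa1, Saa2 and Saa3 in Vil.Cre Maf.flox, against 96.6, 94.6 and 68% in Maf.flox. The last of these shares rests on 25 counts. This gap in level stood between genes whose sequence just before the start is also nearly the same. The 250 bases before the start of Saa1 (GRCm38.p6, chr7:46742981-46743230, minus strand) and of Saa2 (chr7:46751583-46751832, plus strand), both by the starts of RefSeq, are 94.8% identical over 251 aligned positions. Capitals mark the bases that differ or have no partner.
Saa1: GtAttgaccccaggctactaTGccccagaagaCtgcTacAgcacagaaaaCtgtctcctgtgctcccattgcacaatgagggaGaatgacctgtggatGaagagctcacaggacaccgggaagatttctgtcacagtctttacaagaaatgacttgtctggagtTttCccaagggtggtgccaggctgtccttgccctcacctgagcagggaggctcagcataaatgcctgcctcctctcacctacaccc
Saa2: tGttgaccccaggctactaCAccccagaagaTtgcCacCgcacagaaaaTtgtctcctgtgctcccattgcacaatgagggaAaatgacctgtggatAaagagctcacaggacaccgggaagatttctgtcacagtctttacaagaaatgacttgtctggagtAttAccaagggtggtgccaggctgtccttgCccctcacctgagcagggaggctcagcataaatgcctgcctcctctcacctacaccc

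Lcn2 (chromosome 2, 32384633 to 32388252, minus strand) encodes lipocalin-2, which binds bacterial siderophores and so withholds iron. It had 32, 3 and 5 counts in Vil.Cre Maf.flox and 7, 1 and 3 in Maf.flox, or 1.62, 0.176 and 0.214 CPM in Vil.Cre Maf.flox and 0.294, 0.0521 and 0.142 CPM in Maf.flox. Vil.Cre Maf.flox replicate 1 stood alone, and the other libraries of both genotypes overlapped. With no filter on low counts the log2 fold change was 1.97, with a 95% interval from -0.11 to 4.05 (adjusted p = 0.462 in that edgeR quasi-likelihood fit).

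Pigr (chromosome 1, 130826684 to 130852249, plus strand) encodes the receptor that takes up dimeric IgA at the base of the epithelial cell and releases it into the lumen. It was by far the most abundant of the 10 genes, with 6330, 7877 and 6410 CPM in Vil.Cre Maf.flox, against 5537, 4913 and 5668 CPM in Maf.flox. All Vil.Cre Maf.flox libraries lay above all Maf.flox libraries, by a small margin. The log2 fold change was 0.36 (SE 0.159, 95% interval -0.01 to 0.72, adjusted p = 0.314, edgeR's quasi-likelihood test), and it lay between 0.26 and 0.42 with 1 library left out. Transcripts of IgA itself, which come from plasma cells that the sort should exclude, were few: Igha had 3.55, 11.5 and 1.93 CPM in Vil.Cre Maf.flox and 3.03, 2.19 and 2.89 CPM in Maf.flox, with Jchain, the joining chain, at 0.609, 3.93 and 0.471 CPM in Vil.Cre Maf.flox and at 1.18, 0.260 and 0.379 CPM in Maf.flox. Vil.Cre Maf.flox replicate 2 was the highest library for Pigr, Igha and Jchain, and the part of plasma cell RNA in this was not tested.

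Both receptor chains had values below 0 for their fold change. Il22ra1 (chromosome 4, 135728172 to 135752140, plus strand), the chain that limits IL-22 responses to epithelia and other tissue cells, had 58.0, 69.4 and 51.7 CPM in Vil.Cre Maf.flox, against 97.7, 83.7 and 57.2 CPM in Maf.flox. Maf.flox replicate 3 lay within the range of the Vil.Cre Maf.flox libraries, so the groups overlapped. Its log2 fold change was -0.41 (SE 0.199, 95% interval -0.87 to 0.04, adjusted p = 0.354, edgeR's quasi-likelihood test), and -0.60 (adjusted p = 0.0530, same test) without that library. Il10rb (chromosome 16, 91406164 to 91425834, plus strand), the chain shared with the receptors for IL-10 and interferon lambda, had 41.0, 48.5 and 35.9 CPM in Vil.Cre Maf.flox and 52.8, 53.1 and 41.9 CPM in Maf.flox. Its groups overlapped too, with a log2 fold change of -0.24 (95% interval -0.56 to 0.08). Il10rb shares 569 exonic bases with the predicted gene Gm21970 on the same strand, and reads there can belong to either. The ratio of Il22ra1 to Il10rb, taken per gene length from the deposited FPKM, averaged 2.12 ± 0.0211 in Vil.Cre Maf.flox and 2.37 ± 0.361 in Maf.flox (SD, n = 3 each, exact permutation p = 0.4, two-sided; the smallest p that 3 against 3 allows is 0.1).

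Stat3 (chromosome 11, 100885098 to 100939540, minus strand), the transcription factor that the receptor activates, had 141, 121 and 72.5 CPM in Vil.Cre Maf.flox, against 131, 120 and 99.7 CPM in Maf.flox. The Maf.flox values all lay inside the wider range of the Vil.Cre Maf.flox libraries. The log2 fold change was -0.07, with a 95% interval from -0.61 to 0.47. Its RNA level does not measure its phosphorylation, through which the protein is switched on. Stat3 shares 72 exonic bases with Stat5a on the opposite strand.

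Socs3 (chromosome 11, 117966079 to 117970047, minus strand), an inhibitor that STAT3 induces and that blocks the receptor's kinases, had 68.3, 22.5 and 28.0 CPM in Vil.Cre Maf.flox and 20.3, 31.8 and 23.7 CPM in Maf.flox. Vil.Cre Maf.flox replicate 1 was alone above the range of the Maf.flox libraries. The log2 fold change was 0.65 (SE 0.444, 95% interval -0.43 to 1.73, adjusted p = 0.534, edgeR's quasi-likelihood test) and was 0.02 without that library. The ratio of Socs3 to Stat3 per gene length was 1.60, 0.616 and 1.27 in Vil.Cre Maf.flox and 0.511, 0.872 and 0.782 in Maf.flox (exact permutation p = 0.3, two-sided), so these groups overlapped as well.

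Socs3 is the member with a STAT element just before its start, which is why its sequence is shown. The letters TTCNNNGAA, a form that STAT factors are known to bind and that reads the same on both strands, were searched from 250 bases before to 50 after the start of 9 of the 10 genes in the RefSeq promoters (GRCm38.p6). Of 32851 promoters of that length 8.30% hold a match. Socs3 has 1, beginning at position -154 from the RefSeq start, and Pigr has 1, at position 39. These letters are in no other of the windows, and the Maf half-site TGCTGAC, searched on both strands and present in 4.67% of promoters, is in none of the 9. The 250 bases before the start of Socs3 follow (chr11:117969367-117969616, minus strand; this start lies inside the gene as GENCODE bounds it), with the STAT element in capitals.
Socs3: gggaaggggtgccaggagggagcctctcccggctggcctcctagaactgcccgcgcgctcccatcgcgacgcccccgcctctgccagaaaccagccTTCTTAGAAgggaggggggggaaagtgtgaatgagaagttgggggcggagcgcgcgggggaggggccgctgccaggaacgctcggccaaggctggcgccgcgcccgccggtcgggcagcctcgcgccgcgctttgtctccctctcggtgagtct

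Bcl3 (chromosome 7, 19808462 to 19822770, minus strand), an atypical member of the IkB family that acts with NF-kB subunits in the nucleus, had 64.8, 60.6 and 60.5 CPM in Vil.Cre Maf.flox and 62.1, 83.5 and 56.4 CPM in Maf.flox. The Vil.Cre Maf.flox values all lay inside the Maf.flox range. Its log2 fold change was -0.12 (95% interval -0.45 to 0.21) and 0.073 without Maf.flox replicate 2. Bcl3 shares 161 exonic bases with an antisense gene, Gm16175, and the use of strand in counting is not given in the sources used here.

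**Figure D2:**
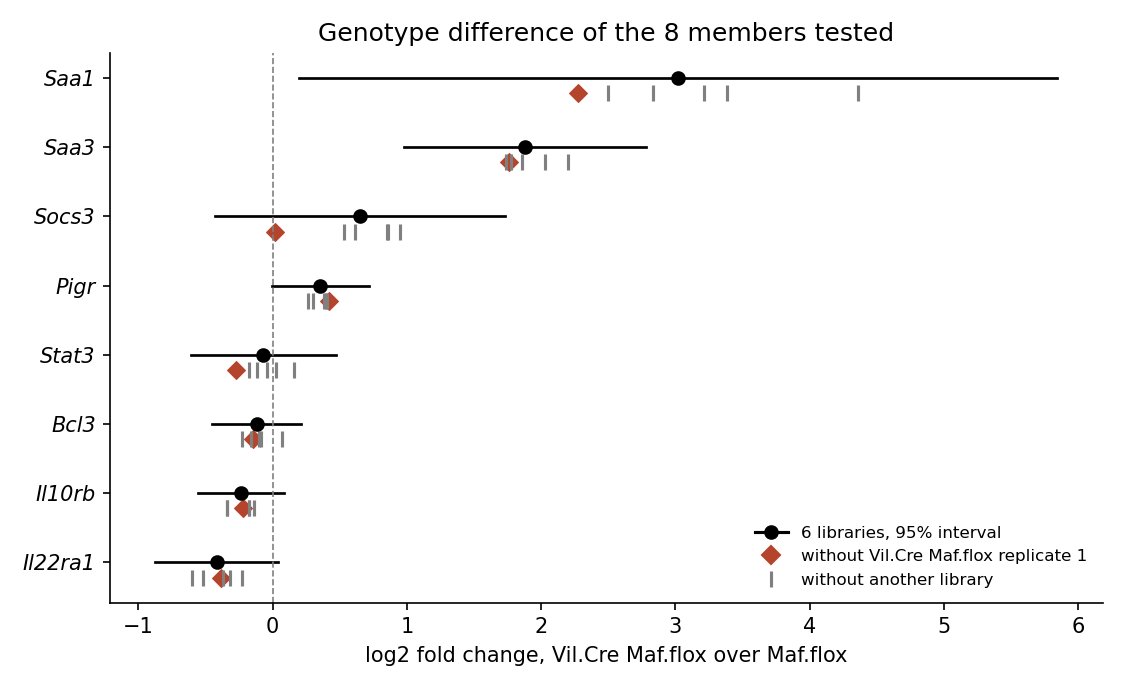
Log2 fold change of Vil.Cre Maf.flox over Maf.flox (horizontal axis) for the 8 genes tested; black points and bars are the estimate and 95% interval of the fit on 6 libraries, and marks under them are fits with 1 library left out. The intervals of Saa1 and Saa3 lie above 0, and Socs3 stands at 0.02 without Vil.Cre Maf.flox replicate 1, shown as a diamond.

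Groups did not overlap for Saa1, Saa3 and Pigr, all higher in Vil.Cre Maf.flox, where 10.1% of all 13740 genes were higher without overlap. For no member were all Vil.Cre Maf.flox libraries below all Maf.flox libraries, against 10.5% of all genes. Of the 8 genes tested 4 had a log2 fold change above 0 and 4 below, with a median of 0.14 beside a median of -0.01 over all genes. Saa1, Saa3, Socs3 and Pigr were on the higher side, and Il22ra1, Il10rb, Stat3 and Bcl3 on the lower side. Of these, Socs3 stood at 0.02 without Vil.Cre Maf.flox replicate 1, and Stat3 and Bcl3 changed sign in fits with 1 library left out. Since Saa3 entered the test only through the genotype in which it is high, nothing is read from these counts and this median.

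Vil.Cre Maf.flox replicate 1 was the highest library for 6 of the 10 genes, namely Saa1, Saa2, Saa3, Lcn2, Stat3 and Socs3. Over all genes tested it was the highest library for 19.9%. Among 22 other epithelial targets of IL-22 and STAT3 that had counts, it was the highest for 13. The 10 and the 22 include genes with too few counts to be tested, while the 19.9% does not, so these sets are unlike. Fut2, an enzyme that adds fucose to the epithelial surface, had 49.8 CPM in this library, 3.05 and 4.45 CPM in the other Vil.Cre Maf.flox libraries and 1.09, 4.32 and 0.711 CPM in Maf.flox. Lrg1, a secreted glycoprotein, had 330 counts there, 5 and 20 in the other Vil.Cre Maf.flox libraries and 2, 5 and 5 in Maf.flox; it was chosen after its values were seen. Beside this, the leukocyte marker sum of the same library was 38.2 CPM, between those of its group (42.4 and 32.6 CPM), and the part of other cells in its high values was not tested.

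By Xist and genes of the Y chromosome, the libraries came from 1 female and 2 males among the Vil.Cre Maf.flox mice and 2 females and 1 male among the Maf.flox mice. On the log2 CPM scale, Saa1 differed between genotypes by 1.78 within males and by 4.26 within females, Saa3 by 1.21 within males and 1.87 within females, and Pigr by 0.35 within males and 0.28 within females. Il22ra1 differed by -0.62 within males and -0.42 within females, Il10rb by -0.24 and -0.39, and Stat3 by -0.00 and -0.59. Socs3 differed by 0.95 within males and 0.03 within females, and Bcl3 by 0.01 and -0.18. These differences rest on 1 library against 2 in either sex. A test of the difference between the sexes called 0 genes of the whole table (adjusted p = 1.00 for the 8 genes, edgeR's quasi-likelihood test), with an unadjusted p under 0.05 for Stat3 alone of the 8.

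Levels of different genes were compared per gene length, from the deposited FPKM. In Vil.Cre Maf.flox, Pigr led with 1711 ± 211 FPKM, followed by Bcl3 with 25.1 ± 1.01, Il22ra1 with 23.3 ± 3.40, Saa1 with 21.9 ± 15.8, Socs3 with 13.7 ± 8.67, Stat3 with 11.7 ± 3.67 and Il10rb with 11.0 ± 1.62 FPKM (SD, n = 3). The ranges of neighbours from Bcl3 to Il10rb overlapped, so their order was not fixed. Saa3, Lcn2 and Saa2 followed, all under 1 FPKM. In Maf.flox, Pigr led with 1329 ± 107 FPKM, then Il22ra1 with 30.8 ± 8.17, Bcl3 with 27.1 ± 5.57, Il10rb with 12.9 ± 1.70, Stat3 with 12.2 ± 1.72, Socs3 with 8.68 ± 1.97 and Saa1 with 2.66 ± 2.84 FPKM (SD, n = 3). There Bcl3 was above Il10rb, Socs3 above Saa1 and Saa1 above Saa3 in every library, while the other neighbours overlapped save Pigr. The gene length behind these values takes in retained introns: it is 2478 bases for Saa1, whose spliced mRNA has 609. Per kilobase of mRNA, the mean of Saa1 would stand at 89.1 in Vil.Cre Maf.flox and 10.8 in Maf.flox, above each of the other genes but Pigr in Vil.Cre Maf.flox.

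Upstream of these genes no member of the pathway was called. Of 15 receptor chains and kinases upstream of STAT3, 10 were tested and 0 called (edgeR's quasi-likelihood test); Il22ra1 and Il10rb are among them, and 0 had an unadjusted p under 0.05. The median log2 fold change was -0.16. The kinases Jak1, Jak2 and Tyk2 had values of -0.01, -0.21 and -0.03, the receptor chain for IL-6, Il6ra, one of -0.81, and that for interferon lambda, Ifnlr1, one of -0.28. Of the STAT factors 6 were tested and 0 called, with Stat5b at -0.04 and Stat2 at 0.04. Of 13 feedback genes and phosphatases 0 were called, with 2 at an unadjusted p under 0.05, against 16.4% of all genes: Socs1, a relative of Socs3, at 0.45 and Socs4 at -0.30. Cish, which STAT5 induces, stood at -0.87 and Pias1, an inhibitor of STAT factors, at -0.19. Of the 12 ligands listed, Lif had 7.86, 7.40 and 8.13 CPM in Vil.Cre Maf.flox and 5.93, 6.87 and 7.07 CPM in Maf.flox, Il11 and Il23a had at most 8 counts in any library, and Il22 itself was not analysed here.

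**Figure D3:**
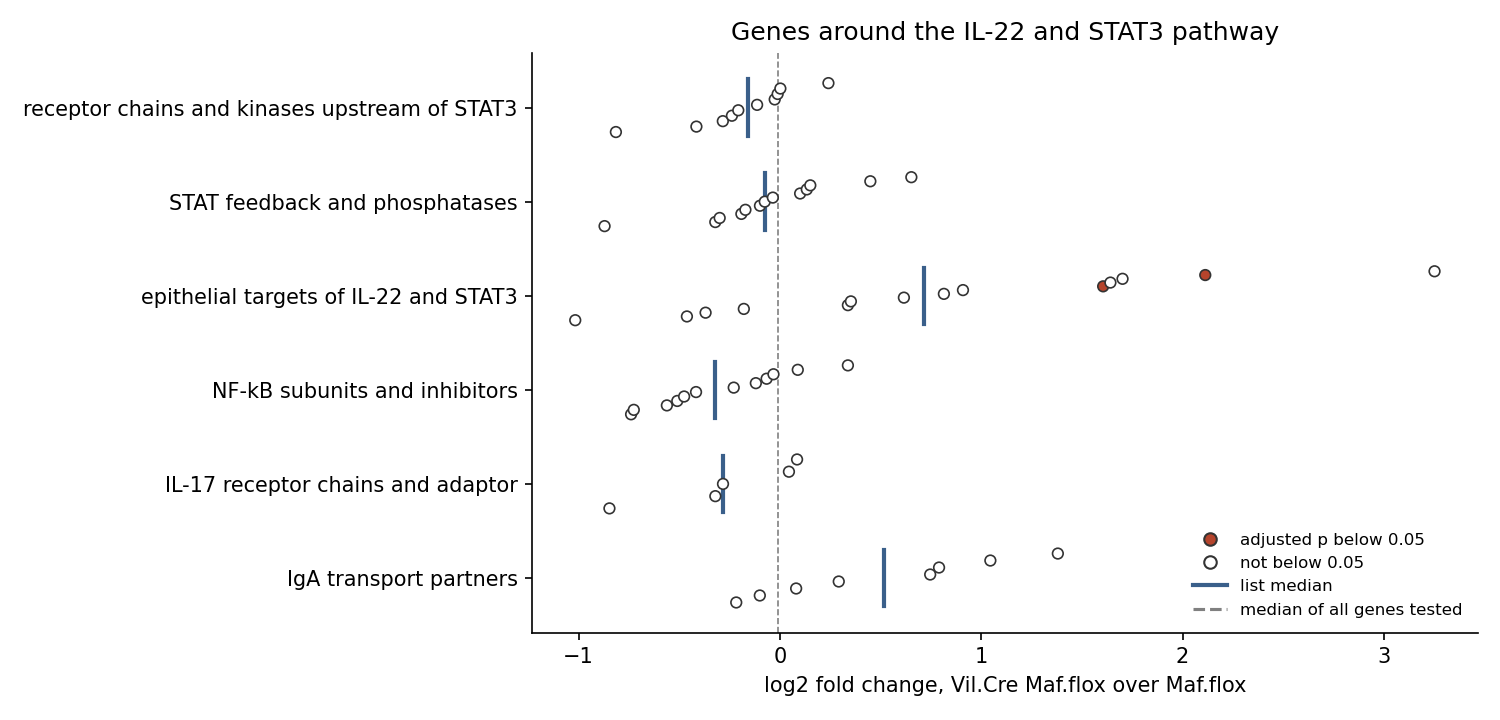
Log2 fold change of Vil.Cre Maf.flox over Maf.flox (horizontal axis) for genes tested in 6 lists around the pathway; each point is a gene, filled where its adjusted p was below 0.05, blue bars are list medians and the dashed line is the median of all genes tested. Duox2 and Duoxa2 are the filled points, among targets with a median of 0.72.

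Other targets of IL-22 and STAT3 in the epithelium included the called genes of these lists. Of 26 listed, 14 were tested, with 10 above 0, 4 below (51.6% of all genes lay below) and a median log2 fold change of 0.72. Called were 2, both higher, where 0.189% of all genes were called higher. Duox2, an epithelial oxidase, stood at 1.61 (adjusted p = 0.0143, edgeR's quasi-likelihood test). Its maturation factor Duoxa2 stood at 2.11 (adjusted p = 0.0315, same test). They are neighbours on opposite strands of chromosome 2, where Duox2 ends at 122298165 and Duoxa2 starts at 122298900, so their calls may not be independent. This list was chosen with earlier results of these data known, so nothing is read from the count called. Duox2 had 707, 448 and 512 CPM in Vil.Cre Maf.flox, against 169, 189 and 190 CPM in Maf.flox. Both were also called without Vil.Cre Maf.flox replicate 1, at 1.40 and 1.76. The lectin genes Reg3b and Reg3g, whose reads can be shared, had values of 1.70 and 1.64 and were not called, with 1.08 and 0.86 without that library. Nos2, the inducible nitric oxide synthase, lay below 0 at -0.46 and Il1rn, which encodes an antagonist of IL-1, at -1.02; neither was called, and both were named after their values were seen. Ltf, the iron binding lactoferrin and the relative of Lcn2 in function, had 5.68, 2.70 and 3.04 CPM in Vil.Cre Maf.flox and 0.925, 1.35 and 0.617 CPM in Maf.flox, a log2 fold change of 1.98 (adjusted p = 0.0729, edgeR's quasi-likelihood test). The complement gene C3 stood at -0.22. These were the 2 acute phase genes tested of 9 listed, and 0 were called.

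Of 12 genes of the NF-kB system, where Bcl3 belongs, all were tested and 0 called. Below 0 lay the log2 fold change of 10 and above 0 that of 2, with a median of -0.32, where 51.6% of all genes lay below 0. The unadjusted p lay under 0.05 for 4, all lower, where 9.25% of all genes were lower at that p. These were Nfkb2 and Relb, the subunits of the alternative branch, at -0.51 and -0.56, and the inhibitors Nfkbia and Tnfaip3 at -0.73 and -0.74 (adjusted p = 0.0695, 0.150, 0.168 and 0.248, edgeR's quasi-likelihood test). For each of these genes every Vil.Cre Maf.flox library lay below every Maf.flox library, as for 10.5% of all genes. Nfkb2, for example, had 49.4, 57.5 and 50.5 CPM in Vil.Cre Maf.flox, against 78.7, 72.1 and 73.3 CPM in Maf.flox. Of the IL-17 receptor chains and their adaptor Traf3ip2, 5 were tested and 0 called, with 0 at an unadjusted p under 0.05. Il17ra, Il17rb, Il17re and Il17rc stood at -0.28, -0.85, -0.32 and 0.09.

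Among partners of Pigr, 8 of 9 genes were tested and 0 called, with a median of 0.52. The plasma cell genes Igha and Jchain had the largest log2 fold changes of the list, 1.05 and 1.38, and were not called. Both enter this median and the count of genes above 0, so neither describes the epithelial partners alone. The unadjusted p lay under 0.05 for 3, all higher, against 7.11% of all genes, and 6 had a log2 fold change above 0 and 2 below, where 51.6% of all genes lay below. Tnfsf13 and Tnfsf13b, the cytokines APRIL and BAFF that sustain IgA-producing cells, had log2 fold changes of 0.75 and 0.79 (adjusted p = 0.158 and 0.237, edgeR's quasi-likelihood test). Tnfsf13 had 265, 276 and 260 counts in Vil.Cre Maf.flox, against 214, 111 and 199 counts in Maf.flox, and the groups did not overlap, as for 10.1% of all genes in this direction. Tnfsf13b overlapped, with 5.88, 11.2 and 7.70 CPM in Vil.Cre Maf.flox and 6.39, 4.37 and 3.46 CPM in Maf.flox. Rab25, a GTPase of the recycling compartment through which pIgR passes, stood at 0.29, and Myo5b, the motor of that compartment, at -0.22.

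The genes whose profile over the 6 libraries was most like that of Saa1 were Ly6a, Reg3b, Reg3g, Fut2 and Zbp1. Likeness was the root mean square difference of log2 CPM after each gene was centred on its own mean, among 8879 genes with a mean of at least 10 CPM, and it ran from 1.13 for Ly6a to 1.48 for Zbp1. Ly6a, a surface protein anchored in the membrane by a lipid, had 32.7, 14.0 and 22.9 CPM in Vil.Cre Maf.flox, against 3.07, 2.03 and 2.32 CPM in Maf.flox. Reg3b had 19978, 6335 and 8691 CPM in Vil.Cre Maf.flox, against 4314, 3716 and 2731 CPM in Maf.flox. These genes were chosen for likeness to Saa1, so nothing is read from their being highest in the same library. The genes closest to Pigr were Sh3bgrl2, Dpy19l1, Flrt3, Noxa1 and Fbxw5, at differences of 0.05 to 0.07.

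**Figure D4:**
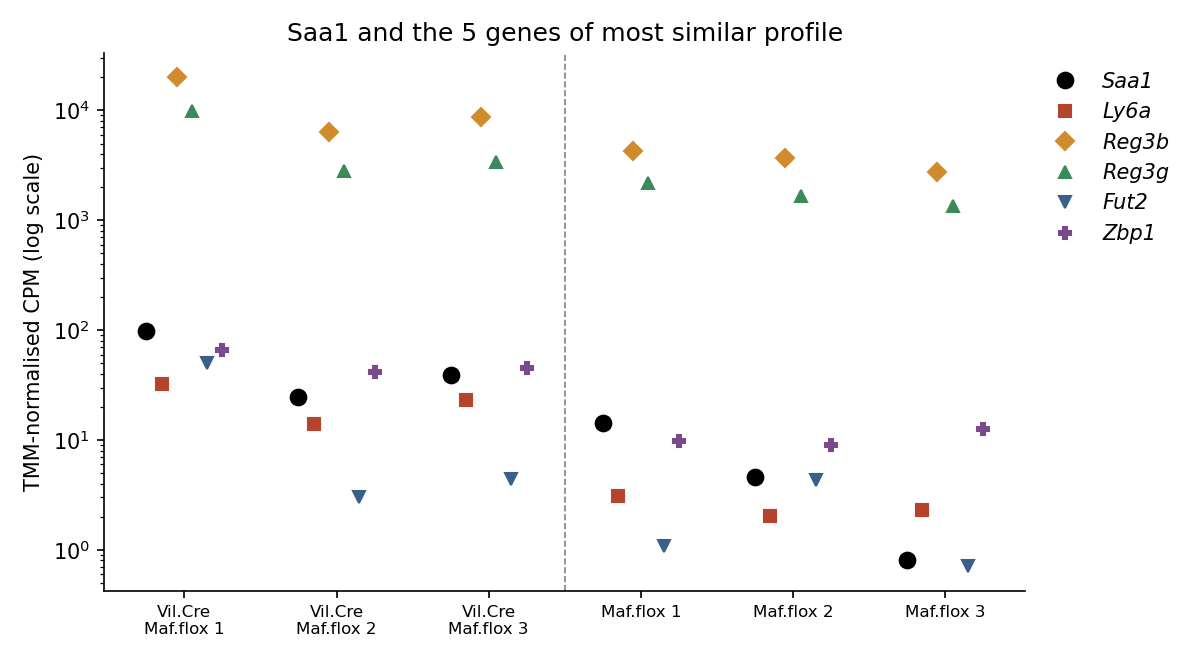
TMM-normalised CPM (vertical axis, log scale) of Saa1 and the 5 genes of most similar profile in each of the 6 libraries. All 6 genes are highest in Vil.Cre Maf.flox replicate 1, where Saa1 stands at 98.5 CPM. The 5 others were chosen for likeness to Saa1, so nothing is read from this. Saa1 is lowest in Maf.flox replicate 3, at 0.806 CPM.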

How the data were processed

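The authors deposited, per gene, raw read counts and FPKM (counts scaled to gene length and library size) for 6 libraries. The submitters' processing notes name the builds GRCm38 and mm10 and the tools featureCounts (1.5.0-p3), HISAT2 (2.0.5) and DESeq2, without their roles. Poly-A RNA was reverse transcribed with random hexamers, per the labels' protocols. Each FPKM value deposited equals count over length and a single library size, and FPKM served only to compare levels between genes. Counts were tested with edgeR 4.0.16 (R 4.3.3): filterByExpr (least count 10), TMM, quasi-likelihood F test with robust estimation, genotype as the only term, Benjamini-Hochberg adjustment over 13740 genes. SE is the absolute log2 fold change over the square root of F. Profiles used log2 CPM with a prior count of 2. The scripts were tested on simulated data: changed genes were recovered, but the share of false calls was above the nominal rate, more so for DESeq2 than for edgeR or limma-voom. Named were the 10 genes, called genes and the 4 of smallest p of each list, and the highest gene of cells the sort should exclude; Jak1, Jak2, Tyk2 and others marked in the text fall outside this rule, and some genes it would name are not reported here; the genes and lists were chosen with earlier results of these data known. Gene symbols that a spreadsheet had turned into dates (24) were restored by identifier. Replicates of a group differed by a chi-square per gene of 36.0 or more, far beyond counting noise. Alternatives were other scalings, filters, thresholds, tools (DESeq2 1.42.0, limma-voom 3.58.1), a replicate block, a sex term and each library left out; for a single extra check of the target list, chosen after seeing the data, replicate 1 of Vil.Cre Maf.flox was left out.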

Additional observations from a re-analysis of the deposited data

How the results depend on the processing

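The count of called genes among the 10 was 0 in the main test. It was 1, Saa3, with no filter, by DESeq2 and at an FDR of 0.1; it was 0 under RLE and upper quartile scaling, a stricter filter, limma-voom, an FDR of 0.01, the replicate block, a sex term and with each library left out (0 to 0). Over all genes 75 were called, against 365 with no filter, 761 by DESeq2, 34 by limma-voom, 2 at an FDR of 0.01, 372 at 0.1, 440 with the replicate block, 38 with a sex term, and 8 to 701 with 1 library left out, the highest without Maf.flox replicate 3. The cause was not tested. Signs turned for genes that were not called: with 1 library left out Stat3 ranged from -0.27 to 0.16, at 0.16 without Vil.Cre Maf.flox replicate 3 and at 0.027 without Maf.flox replicate 1, and Bcl3 ranged from -0.23 to 0.073, at 0.073 without Maf.flox replicate 2. Maf, called with 6 libraries, had an adjusted p of 0.0556 without Vil.Cre Maf.flox replicate 2, 0.0563 without replicate 3 and 0.0557 without Maf.flox replicate 2 (edgeR's quasi-likelihood test). Saa1, Saa3, Pigr, Socs3, Il22ra1 and Il10rb kept their sign in each alternative that tested them; Saa3 did not enter the stricter filter. The deviations of same-numbered libraries from their group means had correlations of 0.0917, -0.0256 and 0.269, so pairing by number was not assumed, and the replicate block changed the call of none of the 10. Saa2 had at most 5 counts in any library, where no difference was detectable; Lcn2 had at most 7 counts in all but Vil.Cre Maf.flox replicate 1, with 32, and entered only the test with no filter.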
